A study of Rattus norvegicus with 4 samples.

Results

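*Actb* and *Gapdh* were examined in fully-grown rat GV oocytes as 2 of the 32883 gene IDs in a table of raw counts. *Actb* encodes the cytoplasmic beta-actin of the cytoskeleton, and *Gapdh* encodes glyceraldehyde-3-phosphate dehydrogenase of glycolysis. Both genes were chosen by their Ensembl identifiers, ENSRNOG00000034254 for *Actb* and ENSRNOG00000018630 for *Gapdh*, as common reference genes. The rule used no measured value of either gene, but it was set with earlier results of these data known. The pairing of these identifiers with the symbols was taken as given, since the reference gene table used here held 0 Ensembl identifiers. The question was how abundant both transcripts were and how steady they were between libraries.

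The data were 4 RNA-seq libraries of wild-type *Rattus norvegicus* of the Sprague Dawley strain. Each library was made from a pool of 25 oocytes. No superovulation was used, and the oocytes were kept in prophase arrest with 0.2 mM IBMX, a phosphodiesterase inhibitor. All libraries belong to 1 condition, so no comparison between conditions could be made or tested. Neither the age of the animals nor the number behind each pool is stated, so the spread between libraries may be in part technical. Libraries held 19863236 to 28062431 counts on gene IDs. Levels were expressed as CPM, counts per 1000000 counts of the library total, without correction for transcript length. The labelled cell type could not be checked against oocyte or granulosa cell markers, because other gene IDs could not be paired with symbols.

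Beta-actin polymerises into filaments that form the oocyte cortex and take part in spindle positioning and in polar body extrusion. GAPDH catalyses the oxidation step of glycolysis, a pathway that mammalian oocytes use little and for which they depend largely on the surrounding cumulus cells. Fully-grown oocytes are transcriptionally quiescent, so their mRNAs form a pool stored during growth. Both genes are used as internal standards in RT-qPCR, where a standard is expected to hold a constant share of the RNA between samples.

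*Actb*, the cytoskeletal member, received 3135, 2283, 2484 and 2333 counts in replicates 1 to 4. Relative to the library totals these were 112, 115, 103 and 92.9 CPM. The level was 106 CPM ± 9.90 (SD, n = 4), with its highest value in replicate 2 and its lowest in replicate 4. Exact Poisson 95% intervals, which cover counting error only, were 108 to 116 CPM in replicate 1 and 110 to 120 CPM in replicate 2. In replicate 4 the interval was 89.1 to 96.7 CPM and lay below the intervals of the other libraries. The highest level exceeded the lowest by a factor of 1.24, or 0.31 on the log2 scale.

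*Gapdh*, the glycolytic member, received 6355, 4666, 5488 and 6438 counts in replicates 1 to 4. These corresponded to 226, 235, 228 and 256 CPM. The level was 236 CPM ± 13.8 (SD, n = 4). The values of replicates 1 to 3 had overlapping intervals, the outer ones being 221 to 232 CPM in replicate 1 and 228 to 242 CPM in replicate 2. Replicate 4 was highest, with an interval of 250 to 263 CPM above all others. The highest level exceeded the lowest by a factor of 1.13, or 0.18 on the log2 scale.

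**Figure D1:**
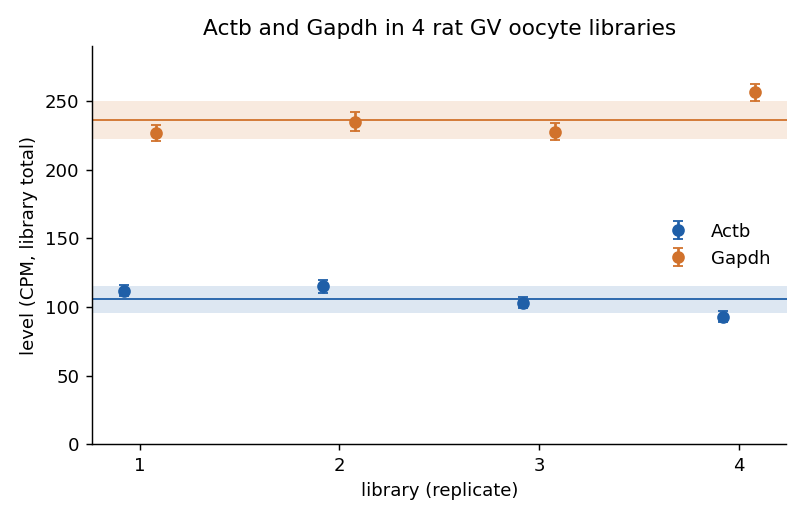
Level of *Actb* and *Gapdh* (vertical axis, CPM of the library total) in each of the 4 rat GV oocyte libraries (horizontal axis). Points are libraries, error bars exact Poisson 95% intervals of the count, lines means and shaded bands ± 1 SD; in replicate 4 *Actb* is lowest at 92.9 CPM and *Gapdh* highest at 256 CPM.

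Both transcripts lay in the upper part of the oocyte transcriptome without being among its most abundant RNAs. By mean CPM *Gapdh* ranked 908 and *Actb* 2107 of 32883 gene IDs. The rank of *Gapdh* was between 807 in replicate 4 and 966 in replicate 1. *Actb* ranked from 1950 in replicate 2 to 2357 in replicate 4. Among the 11112 gene IDs at or above 1 CPM in every library, 8.16% lay above *Gapdh* and 19.0% above *Actb*. The median of these IDs was 22.0 CPM. *Gapdh* reached 10.7 times that level and *Actb* 4.80 times, as levels per library total and not per length. *Gapdh* took 0.0236% ± 0.00138 of the counts of a library and *Actb* 0.0106% ± 0.000990 (SD, n = 4 for both). Neighbours in this order were close. The mean of 141 other gene IDs fell within 1 SD of the *Gapdh* mean, and that of 331 within 1 SD of the *Actb* mean, so the exact ranks are not resolved by 4 libraries.

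Counting error was a small part of the spread of either gene. The coefficient of variation (CV, the SD as a percent of the mean) was 9.37% for *Actb*, whereas counting alone would give 1.99%. For *Gapdh* the CV was 5.84% and the counting part 1.33%. A chi-square statistic of the counts against the library totals was 22.2 per degree of freedom for *Actb* and 20.6 for *Gapdh*, where counting alone gives about 1. The median over gene IDs at or above 1 CPM was 6.43, and this statistic grows with the count. In edgeR's dispersion model over 16191 gene IDs, the biological coefficient of variation of *Actb* was 9.59%, close to the 9.07% of the trend at its abundance. That of *Gapdh* was 7.38%, below the trend value of 8.28%. The model draws the estimate of each gene towards the trend, so closeness to the trend is partly built in.

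Against gene IDs of like abundance, *Actb* was on the variable side. Of 1104 gene IDs with a mean of 100 to 200 CPM, 78.8% had a smaller CV than *Actb*, and the median CV of that class was 6.36%. The share was 84.8% with TMM-scaled totals and to 86.2% with DESeq2 size factors, which correct the totals for differences in composition. Without replicate 4 the CV of *Actb* was 5.61% and the share 52.6%. The *Actb* mean of 106 CPM lay near the lower edge of this class, so most of the class was more abundant. For gene IDs with a mean of 50 to 100 CPM the median CV was 7.23% and the upper quartile 9.96%. The 9.37% of *Actb* lay between these values.

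*Gapdh* lay near the middle of its own class under the library total. Of 649 gene IDs with a mean of 200 to 400 CPM, 59.3% had a smaller CV, and the class median was 5.23%. This placement depended on the scaling. With TMM-scaled totals the CV of *Gapdh* was 4.27% and 27.1% of the class was steadier, and with DESeq2 size factors the values were 4.21% and 24.8%. Without replicate 4 its CV was 2.00% and 12.3% of the class was steadier, against 78.1% without replicate 2. Over all gene IDs at or above 1 CPM, most of which are less abundant, 43.6% had a smaller CV than *Actb* and 21.0% a smaller CV than *Gapdh*. For *Actb* the share was 29.0% without replicate 4, and 50.6% with TMM-scaled totals and 52.6% with DESeq2 size factors. For *Gapdh* it was 9.21% with TMM-scaled totals, 4.76% without replicate 4 and 35.3% without replicate 2.

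**Figure D2:**
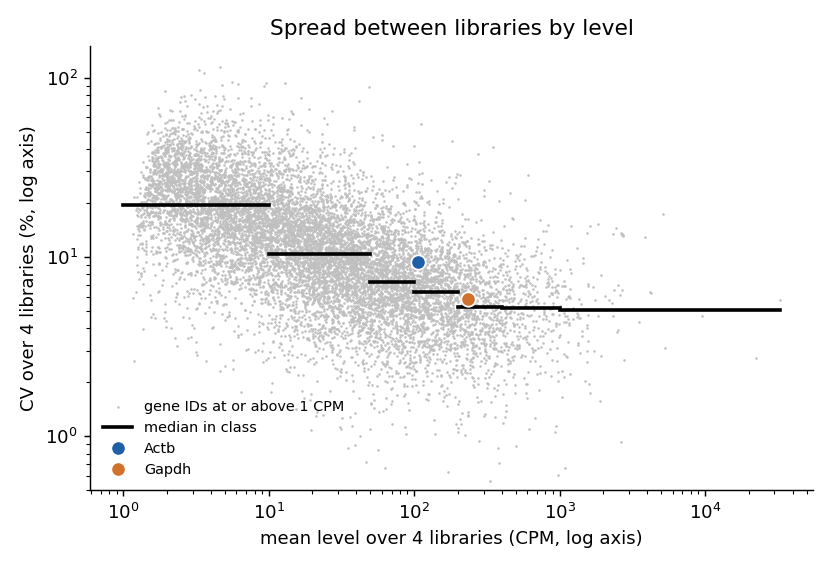
CV over the 4 libraries (vertical axis, percent, log scale) by mean level (horizontal axis, CPM, log scale) for the 11112 gene IDs that reached 1 CPM in all libraries. Grey points are gene IDs and black lines the median of each abundance class; *Actb* lies at 9.37% above its class median of 6.36%, and *Gapdh* at 5.84% near its class median of 5.23%.

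The *Actb* to *Gapdh* ratio does not depend on how libraries are scaled, as both counts come from the same library. The ratio of counts was 0.493, 0.489, 0.453 and 0.362 in replicates 1 to 4, with a mean of 0.449 ± 0.0608 (SD, n = 4). Exact Clopper-Pearson 95% intervals of counting error were 0.473 to 0.515 in replicate 1, 0.465 to 0.515 in replicate 2 and 0.431 to 0.475 in replicate 3. These overlapped one another. The interval of replicate 4 was 0.345 to 0.380 and overlapped none of them. The highest ratio was 1.36 times the lowest, a wider span than that of either gene's CPM, because *Actb* was lowest and *Gapdh* highest in the same library. In other words, *Gapdh* received 2.03 to 2.76 counts for each count of *Actb*. No transcript lengths were used, so these values do not tell which mRNA had more copies per oocyte.

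**Figure D3:**
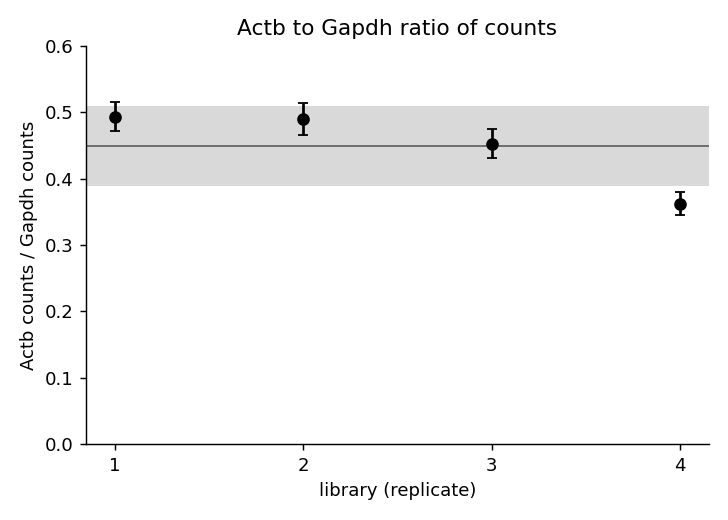
Ratio of *Actb* counts to *Gapdh* counts (vertical axis, no unit) in each of the 4 libraries (horizontal axis). Error bars are exact Clopper-Pearson 95% intervals of counting error, the line is the mean of 0.449 and the band ± 1 SD; replicate 4 lies at 0.362 and the other libraries between 0.453 and 0.493.

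On the log2 scale the ratio had an SD of 0.21 between libraries, where counting alone gives 0.035. Without replicate 4 the SD was 0.069, so the spread of the ratio rested mainly on that library. Among the 6990 gene IDs at or above 10 CPM in every library, 64.7% held a steadier ratio to *Actb* than *Gapdh* did. A steadier ratio to *Gapdh* than that of *Actb* was held by 82.0%. Thus over all 4 libraries most gene IDs of this set followed either gene more closely than the pair followed each other. These shares were not computed without replicate 4, so it is not known whether they hold without that library.

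Replicate 4 also held the extreme value of more gene IDs than any other library. Of the 6990 gene IDs at or above 10 CPM, 31.3% had their highest level in replicate 4 and 28.3% their lowest, against 18.9% to 26.6% and 22.6% to 26.3% in the other libraries. Relative to the mean of the other libraries, *Actb* in replicate 4 was at -0.24 on the log2 scale, and 6.80% of these gene IDs were lower still. *Gapdh* was at 0.16, and 79.1% of the gene IDs were lower. *Actb* in replicate 2 was at 0.16, with 88.4% of the gene IDs lower. The remaining values of both genes lay within 0.11 of the mean of the rest on the log2 scale. Dixon's outlier test divides the gap between an extreme value and its neighbour by the range. It flagged 0 of 8 quantities, among them the CPM of both genes and their ratio, with a largest value of 0.73. With 4 libraries this test finds only very wide gaps. The total of replicate 4, 25125900 counts, lay between those of replicates 1 and 3, and it detected 55.9% of gene IDs against 53.2% to 56.0% over all libraries.

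As scaling standards, the genes pulled replicates 1, 2 and 4 in opposite directions, replicate 2 only slightly with *Gapdh*. Dividing each library by its *Actb* count in place of its total raised all other gene IDs by 13.4% in replicate 4 and lowered them by 8.35% in replicate 2 and 5.71% in replicate 1. With *Gapdh* the other gene IDs were lowered by 7.83% in replicate 4. They were raised by 4.29% in replicate 1, 3.77% in replicate 3 and 0.54% in replicate 2. The geometric mean of both genes kept every library within 4.20% of the total-based value. For scale, TMM factors changed the libraries by at most 2.51% and DESeq2 size factors by at most 2.92%.

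**Figure D4:**
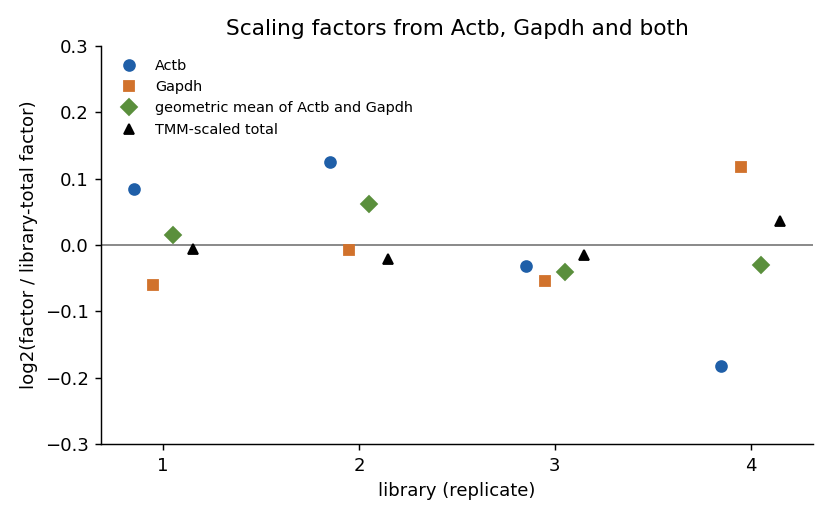
Scaling factor of each library from *Actb*, *Gapdh*, their geometric mean or TMM, as log2 of its ratio to the factor from the library total (vertical axis), by library (horizontal axis). In replicate 4 the *Actb* factor lies at -0.18 and the *Gapdh* factor at 0.12, while the geometric mean lies at -0.029.

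The effect on the rest of the transcriptome was measured over the 11110 other gene IDs at or above 1 CPM. Their median CV was 10.6% with library totals. It was 15.1% after scaling to *Actb*, 11.6% after scaling to *Gapdh* and 11.3% with the geometric mean. The CV was larger than with totals for 78.9% of these gene IDs with *Actb*, for 60.7% with *Gapdh* and for 66.3% with both. Over the 6988 other gene IDs at or above 10 CPM these shares were 80.1%, 68.1% and 63.3%, so the order of *Gapdh* and the geometric mean turned with the minimum level. The medians with TMM-scaled totals and DESeq2 size factors were 10.6% and 10.7%. Totals, TMM and DESeq2 draw on all these gene IDs, so a single gene is at a disadvantage by construction. Leaving out replicate 4 lowered the median with *Actb* to 10.6%, with *Gapdh* to 9.14% and with totals to 8.86%. With the geometric mean the median was then 9.57%, above that with *Gapdh*, the reverse of their order over all 4 libraries.

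**Figure D5:**
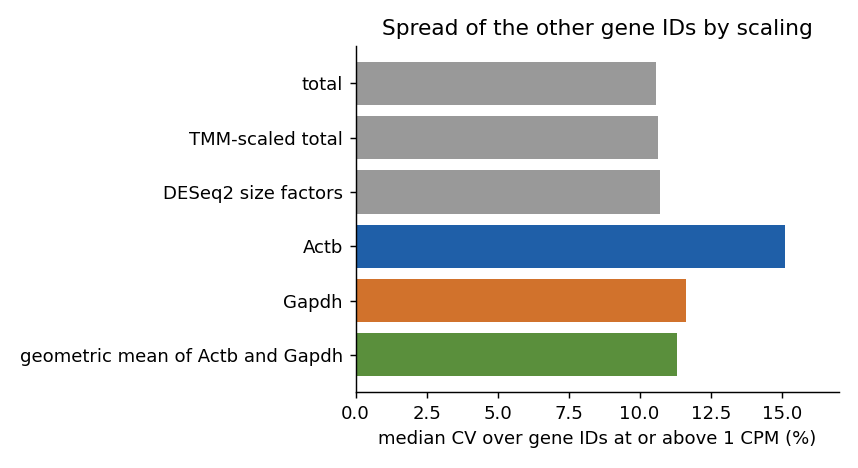
Median CV over the 11110 other gene IDs at or above 1 CPM (horizontal axis, percent) after scaling the 4 libraries in each of 6 ways (vertical axis). Grey bars use all gene IDs (10.6% to 10.7%), and coloured bars use *Actb* (15.1%), *Gapdh* (11.6%) or both (11.3%).

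A comparison between single gene IDs avoids that disadvantage. For each gene ID of the 6990 that reached 10 CPM throughout, the SD of its log2 ratio to every other ID was computed and the median taken, so that a low value marks a steady standard. The median was 0.17 for *Actb* and 0.14 for *Gapdh*, and 0.16 for the middle gene ID. In all, 62.5% of the gene IDs had a lower value than *Actb* and 31.6% a lower value than *Gapdh*. By this measure 2211 gene IDs were steadier standards than *Gapdh* and 4367 steadier than *Actb* in these 4 libraries. These numbers were not computed without replicate 4. The set was also not matched for abundance. The median CV was 10.4% for gene IDs with a mean of 10 to 50 CPM. It was 6.36% in the class of *Actb* and 5.23% in that of *Gapdh*. Both genes were thus compared in part with less abundant and more variable gene IDs, which favours them in these shares.

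The gene IDs whose profile was most like that of each gene were sought among the 2045 IDs that reached 100 CPM in all libraries. For *Actb* these were ENSRNOG00000009267, with an SD of the log2 ratio of 0.0063 over 4 libraries and a level of 556 CPM ± 50.7 (SD, n = 4), and ENSRNOG00000010137, with an SD of 0.012. For *Gapdh* they were ENSRNOG00000005733, with an SD of 0.0087 and a level of 171 CPM ± 10.2 (SD, n = 4), and ENSRNOG00000056728, with an SD of 0.013. These IDs have no symbol in the tables used. Counting alone would give these ratios an SD of 0.027 to 0.036, so the observed values lay below counting error. The IDs were picked for their likeness over only 4 libraries.

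Gene copies leave both values uncertain. The RefSeq gene table of the rat assembly GRCr8 lists 91 other loci named after *Gapdh*, 82 of them as pseudogenes, and 11 named after *Actb*, 10 of them as pseudogenes. They were counted by symbol, and their sequences were not compared. Gamma-actin, from *Actg1*, also differs little from beta-actin. The handling of reads with several matches is not stated, so both counts may have gained or lost reads to such copies, which was not tested.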

How the data were processed

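The table deposited by the authors holds raw, unnormalized counts of 32883 genes (Ensembl release 93, rn6 or Rnor_6.0), with 1 column for each of 4 libraries and 0 columns left over. STAR 2.5.3a and bedtools 2.26.0 are listed in the submitters' processing notes, with no role. For the counting program, the strand setting and multimapping reads, nothing was given in the sources used here. Each column carries the title of its sample.

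CPM was computed on library totals of 19863236 to 28062431 counts. Since libraries were amplified without stated molecular identifiers, exact 95% intervals cover counting error only. Spread was the CV over libraries. TMM factors and dispersions (intercept only, IDs with a summed count of at least 10) came from edgeR 4.0.16, and size factors from DESeq2 1.42.0, in R 4.3.3. Other steps used Python 3.11.15 with scipy 1.17.1, pandas 2.3.3, matplotlib 3.10.9 and numpy 2.4.6, and were tested on simulated data.

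*Actb*, *Gapdh* and the lists were chosen with earlier results of these data known. Besides both genes, the 2 gene IDs at or above 100 CPM with the smallest SD of the log2 ratio to each were named. Lists of other reference genes, actins, glycolytic enzymes and cell markers were not evaluated, since 0 Ensembl IDs could be paired with symbols. Alternatives were other scalings, filters and ranks and leaving out each replicate.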

Additional observations from a re-analysis of the deposited data

How the results depend on the processing

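Of 97 alternatives over 16 results, 87 stayed within the limit set for the result. That limit was 1 SD over libraries for levels and the ratio, and 1 standard error for CVs and the SD of the log2 ratio. For ranks, numbers of gene IDs and medians it was 1.5 times. These limits are wide with 4 libraries. Without replicate 4 the CV of *Actb* went from 9.37% to 5.61%, and the number of gene IDs with a smaller CV from 4850 to 3240. Both stayed within their limits. Totals without the 10 most abundant gene IDs raised *Actb* to 117 CPM and *Gapdh* to 261 CPM, as their construction requires. Among the fewer gene IDs at or above 100 CPM in every library, the number with a smaller CV than *Actb* went from 4850 to 1769. Their share went up from 43.6% to 86.5%. *Actb* itself is not in that set, since it had 92.9 CPM in replicate 4. For *Gapdh* the number went from 2339 to 1107 and the share up from 21.0% to 54.1%. With TMM-scaled totals the number for *Gapdh* was 1026 (9.21%) and with DESeq2 size factors 957 (8.59%), so here the share went down. Without 1 replicate the number was 532 to 3982 for *Gapdh*, lowest without replicate 4 and highest without replicate 2. The CV of *Gapdh* was then 2.00% to 7.13%, and the SD of the log2 *Actb* to *Gapdh* ratio 0.069 to 0.25, both lowest without replicate 4; the cause was not tested. Ranks per kilobase and the ratio per coding kilobase were not run, since no transcript or coding lengths were used. No paired analysis was possible because only 1 group of libraries exists here. Counts of 2283 to 6438 per library and gene gave counting errors well under the spread between libraries. Effects of amplification and of reads with several matches were not tested.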
